A study of Pyrus calleryana with 9 samples.

Results

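The genes described here are the 10 most highly expressed of those that carry the name of an abscisic acid (ABA) insensitive regulator, ABI3, ABI4, ABI5 or FUS3 type, in seeds of callery pear (Pyrus calleryana Decne). They were chosen by searching the Swissprot descriptions of 59552 genes for the names ABSCISIC ACID-INSENSITIVE, ABI3, ABI4, ABI5, FUS3, LEC2, LEAFY COTYLEDON and VAL, which gave 31 genes, and by keeping the 10 with the highest mean FPKM (fragments scaled to transcript length and library size) over the 9 libraries. The levels themselves are therefore a description and not a finding. The 10 genes have 1 match to ABI3, 2 to ABI4, 2 to ABI5, 2 to ABI5-like protein 2 and 1 to ABI1, a protein phosphatase 2C and not a transcription factor. The other 2 are matches to Cell number regulator 8 of maize, which entered only because the letters FUS3 occur in the accession of that protein, so the name gives no ground to call them regulators of this type. None of the 10 is named for FUS3, LEC1, LEC2 or VAL. The 10th gene averaged 11.1 FPKM over the 9 libraries and the 11th 10.9 FPKM, so the limit of the list falls between 2 nearly equal levels.

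Whole seeds were sampled at 0, 20 and 50 d of cold stratification at 4 °C, with 3 replicates (A, B and C) per stage. The seeds came from 15-year-old trees of 1 garden, were dried in the shade, took up water for 24 h and were then kept on wet filter paper in petri dishes, so that the 0 d seeds were imbibed but had no cold. Each replicate was a pool of many seeds, and the labels name no mutant or transgenic line. Each library is a bulk of all seed tissues, so fewer cells of a type and less RNA per cell cannot be told apart.

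In Arabidopsis the ABI genes were found as mutants whose seeds germinate on ABA. ABA binds receptors of the PYR/PYL family, which then block phosphatases 2C such as ABI1, and this frees SnRK2 kinases to activate the bZIP factors ABI5 and the ABF/AREB proteins. ABI3 carries a B3 DNA-binding domain and, with LEC1, LEC2 and FUS3, directs seed maturation and reserve storage, while ABI4, an AP2-domain factor, and ABI5 mediate the ABA response of the ripe and germinating seed. ABI5 is known for holding growth back after imbibition under ABA or drought.

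For 1 of the genes, the ABI4 match Chr1.g57127, the study designed a pair of primers for quantitative RT-PCR. They are shown because they mark the transcript of the more abundant ABI4 gene, whose 50 d libraries stand apart below, and no other sequence of the 10 genes was used here. Both have 19 bases with 57.9% G and C, and no base is in capitals since none was singled out.
Chr1.g57127 forward: cgggctgttcggatattcc
Chr1.g57127 reverse: acactcttcctcgctcgtc
The gene lies on chromosome 1 of the wild pear assembly (Pyrus betuleafolia) to which the reads were aligned, at 13530625 to 13532243 on the minus strand.

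The libraries held 13893019 to 16228340 counts. Stage was not the only axis on which they differed. The replicate 20 d B had a Pearson r of log2 CPM (counts scaled to library size) of 0.88 and 0.89 with the other 20 d replicates, which had 0.98 with each other, and of 0.88 to 0.90 with the 0 d replicates. The replicate 50 d C had 0.90 and 0.92 with 50 d A and B, which had 0.96 with each other. The balance of long genes (2801 genes of at least 3000 bases) over short genes (4950 genes below 1000 bases), on a log2 scale, was -0.99, -0.16 and -0.88 in 0 d A, B and C, 1.22, -1.31 and 1.02 in the 20 d libraries and 1.19, 0.86 and -0.87 in the 50 d libraries. Long genes were thus high in 20 d A, 20 d C, 50 d A and 50 d B, and low in 20 d B, 50 d C and all libraries of 0 d. Calls of the 10 genes, or of the ABF/AREB-type genes described further on, that change without 20 d B are given. So are those that change without both 20 d B and 50 d C. Without both, the balance was negative in every 0 d library and positive in every later one. Stage and balance cannot be told apart in that fit, nor, without 20 d B, at 20 d against 0 d. Seed markers were present in every library, with 10 oleosin genes at a summed 13009 to 24071 FPKM at 0 d, 12772 to 17581 at 20 d and 1978 to 5593 at 50 d, and 15 late embryogenesis abundant (LEA) genes at 1587 to 2591, 950.3 to 1198 and 432.7 to 937.6 FPKM. The 4 legumin genes summed to 1485 to 4130, 980.0 to 1729 and 147.1 to 355.8 FPKM and 8 vicilin genes to 175.8 to 356.4, 135.5 to 1014 and 139.5 to 362.0 FPKM, while no gene is named 2S albumin. Markers of green tissue were present and higher at 50 d, with 33 chlorophyll a-b binding genes at 37.2 to 52.1, 43.7 to 64.7 and 157.8 to 263.4 FPKM and 6 Rubisco small subunit genes at 133.4 to 216.9, 95.4 to 141.2 and 374.4 to 438.4 FPKM; the part of these marker changes in the results below was not tested.

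The stages were compared over 28339 genes by the quasi-likelihood test of edgeR. A gene was called if the adjusted p (Benjamini-Hochberg, over all of these genes) did not exceed 0.01, the log2 fold change was 1 or more in size and the mean FPKM reached 1 in either stage. All 10 genes passed the filter on low counts. Log2 fold changes are given as the later over the earlier stage with their standard error (SE). Of the 10 genes, 1 was called at 20 d against 0 d, where 12.4% of all tested genes were called (7.88% higher and 4.52% lower). None was called at 50 d against 20 d, where 1.66% were (1.4% higher and 0.254% lower), and none at 50 d against 0 d, where 26.6% were (15.6% higher and 11% lower). The count of calls among the 10 was thus no higher than the share in all tested genes. In these comparisons DESeq2 called 2, 0 and 2 of the 10, against 22.5%, 6.09% and 34.9% of all tested genes. Without 20 d B edgeR called 3, 0 and 3 of the 10, against 23.7%, 2.03% and 34.0%. The FPKM of the replicates did not overlap between the stages for 2, 2 and 5 of the 10 genes, against 42.2%, 25.6% and 55.6% of all tested genes. The median log2 fold change of the 10 genes was 0.40, -0.38 and 0.22, and that of all tested genes 0.15, -0.06 and 0.16. In the 8 genes without the Cell number regulator matches the medians were 0.77, -0.53 and 0.47.

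**Figure D1:**
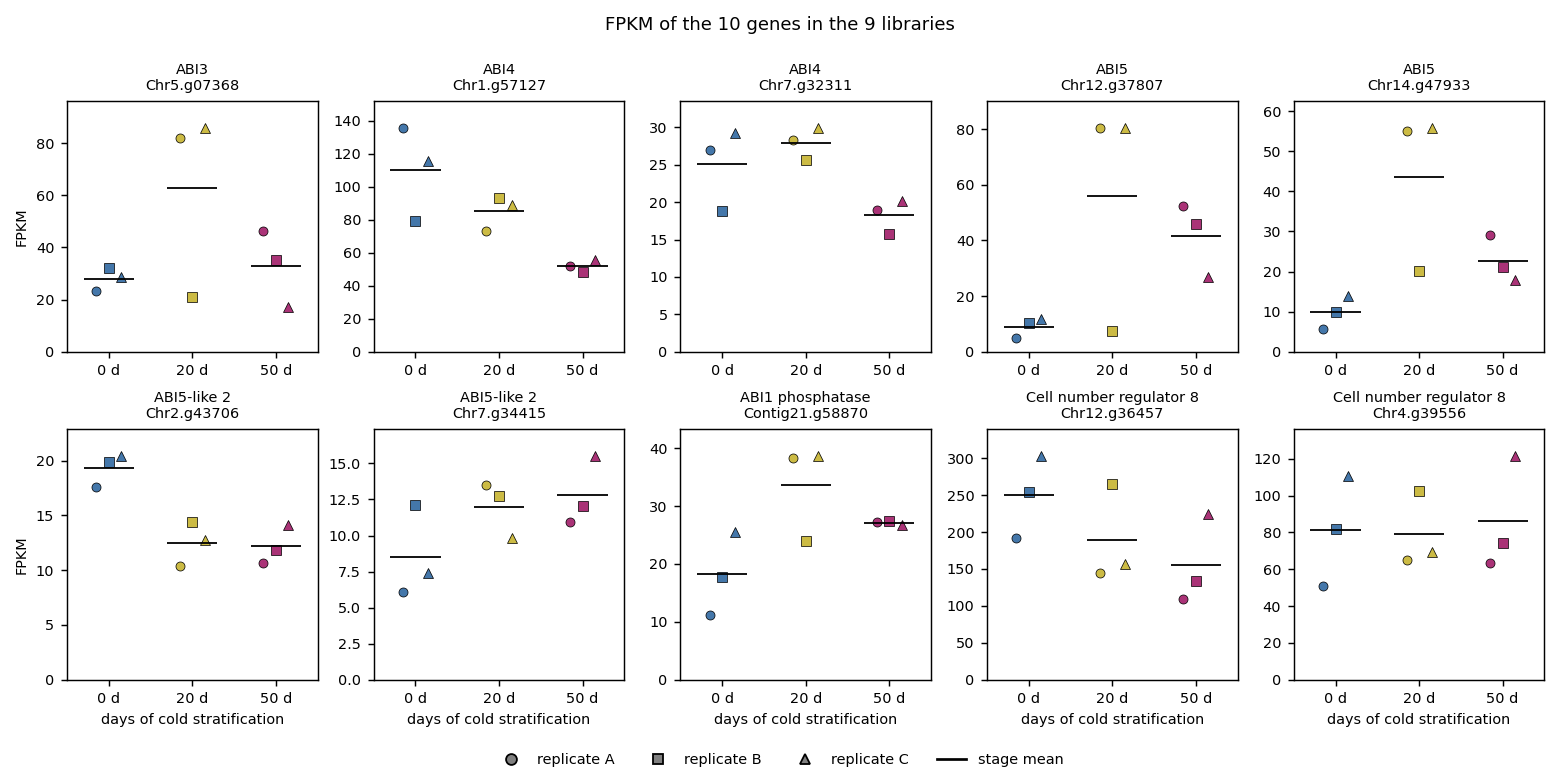
FPKM of each of the 10 genes (y axis, from 0, scale differs between panels) at 0, 20 and 50 d of cold stratification (x axis), with 1 symbol per replicate and a line at the mean of 3. ABI3 and both ABI5 genes are high in 20 d A and C and lower in 20 d B, the ABI4 gene Chr1.g57127 is lowest in the 3 libraries of 50 d, and the ABI5-like 2 gene Chr2.g43706 is highest in the 3 libraries of 0 d.

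ABI3 was the B3-domain gene Chr5.g07368 (chromosome 5, 24696366 to 24700599, minus strand, transcript of 3550 bases), the longest of the 10. Its FPKM was 23.2, 32.0 and 28.9 in 0 d A, B and C, 82.2, 21.0 and 85.8 in the 20 d libraries and 46.2, 35.2 and 17.1 in the 50 d libraries. The replicates 20 d A and C stood far above every other library, whereas 20 d B lay below all 3 of 0 d and 50 d C was the lowest of all. The stage means were 28.0 ± 4.46, 63.0 ± 36.5 and 32.8 ± 14.7 FPKM (SD, n = 3 each). The log2 fold change of ABI3 was 1.24 (SE 0.51, adjusted p = 0.084) at 20 d against 0 d, -0.95 (SE 0.50, adjusted p = 0.348) at 50 d against 20 d and 0.30 (SE 0.50, adjusted p = 0.656) at 50 d against 0 d, and none was called. Without 20 d B the first was 1.57 with an adjusted p of 0.00598, which is a call, and without both 20 d B and 50 d C it was 1.57 with 0.00011. With the trend on gene length taken out it depended on how: 1.03 with an adjusted p of 0.00413, a call, when only differences within a stage were removed, and 0.42 with 0.164, no call, when differences between all libraries were.

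ABI5, the bZIP factor that binds ABA-responsive elements, had 2 genes. Chr12.g37807 (chromosome 12, 2086542 to 2089211, plus strand) had 4.83, 10.4 and 11.9 FPKM in 0 d A, B and C, 80.3, 7.50 and 80.4 FPKM in the 20 d libraries and 52.3, 46.1 and 26.9 FPKM in the 50 d libraries. All 3 libraries of 50 d exceeded all 3 of 0 d, and 20 d B stayed within the range of 0 d. Its log2 fold change was 2.70 (SE 0.71, adjusted p = 0.0154) at 20 d against 0 d and 2.27 (SE 0.70, adjusted p = 0.0203) at 50 d against 0 d, and neither was called. Both became calls without 20 d B, at 3.13 (adjusted p = 0.000117) and 2.22 (adjusted p = 0.000289), without 20 d B and 50 d C, at 3.13 (adjusted p = 1.77e-06) and 2.48 (adjusted p = 7.01e-06), and with DESeq2, at 2.62 (adjusted p = 0.000681) and 2.20 (adjusted p = 0.00333). Each of these 2 changes was called in 6 of 23 other settings, with adjusted p of up to 0.0874 and 0.103 over the settings. With the gene-length trend removed over all libraries, the change at 20 d against 0 d was 2.41 (adjusted p = 0.0139), no call. With it removed within stages, that change was 2.72 (adjusted p = 0.00718), a call. At 50 d against 20 d the change was -0.43 (SE 0.66, adjusted p = 0.797). The paper, which used DESeq, names a homolog of ABI5 among its differentially expressed factors, and its main text does not say which gene.

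The second ABI5 gene, Chr14.g47933 (chromosome 14, 2491165 to 2495473, minus strand), was the 1 gene of the 10 that was called, and it rose at 20 d against 0 d. It had 5.65, 9.87 and 13.8 FPKM in 0 d A, B and C, 55.0, 20.1 and 55.8 FPKM in the 20 d libraries and 29.0, 21.1 and 17.8 FPKM in the 50 d libraries. Every library of 20 d and of 50 d was above every library of 0 d, 20 d B included. The log2 fold change was 2.23 (SE 0.46, adjusted p = 0.00489) at 20 d against 0 d, a fold of 4.70, then -0.96 (SE 0.44, adjusted p = 0.263) at 50 d against 20 d and 1.27 (SE 0.44, adjusted p = 0.0357) at 50 d against 0 d. The call was lost without any 1 of 0 d A, 0 d B, 0 d C, 20 d A or 20 d C, with adjusted p of 0.0159 to 0.0321, and kept with the gene-length trend removed over all libraries, at 1.76 with an adjusted p of 0.00234, or within stages, at 2.20 with 0.000564. Without 20 d B the 50 d against 0 d change of 1.22 had an adjusted p of 0.00844, and without 50 d C as well the change of 1.40 had 0.00113, both calls.

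**Figure D2:**
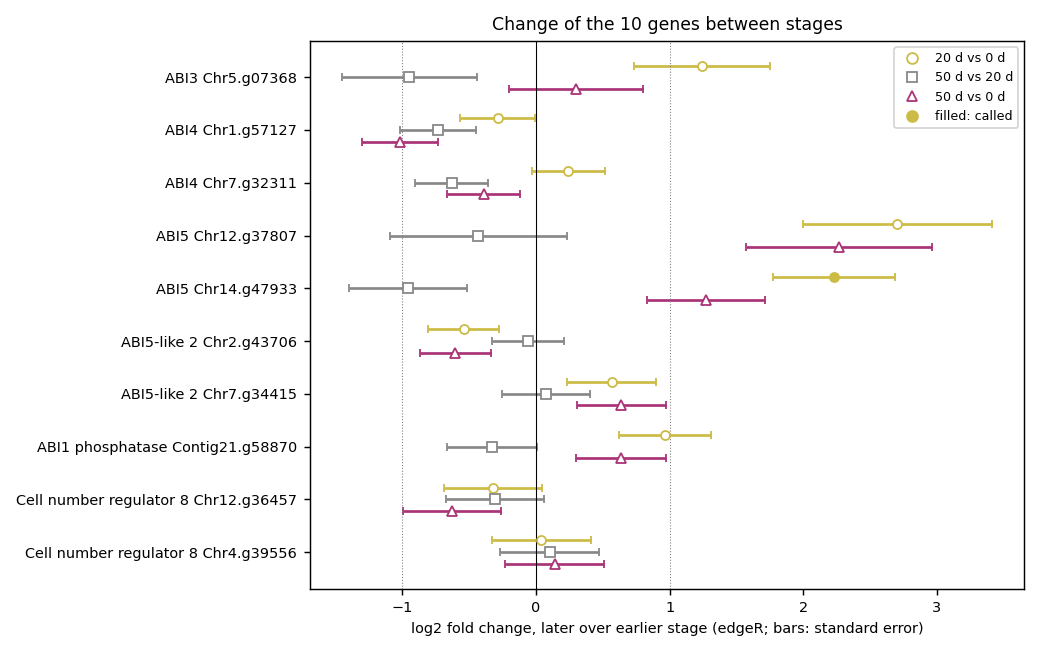
Log2 fold change, later over earlier stage, of the 10 genes (x axis, bars are 1 standard error of the edgeR fit over 9 libraries) in the 3 comparisons, with a filled symbol for a call and dotted lines at -1 and 1. The ABI5 gene Chr14.g47933 holds the 1 filled symbol, at 2.23 for 20 d against 0 d, and the other ABI5 gene lies further out, at 2.70, with a wider bar.

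ABI5-like protein 2, known in Arabidopsis as AREB3 or DPBF3 and a bZIP relative of ABI5, also had 2 genes, and their stages were ordered differently. Chr2.g43706 (chromosome 2, 22281530 to 22289404, plus strand) had 17.6, 19.8 and 20.4 FPKM in 0 d A, B and C, 10.4, 14.4 and 12.8 FPKM in the 20 d libraries and 10.6, 11.8 and 14.1 FPKM in the 50 d libraries. The 3 libraries of 0 d were the highest of the 9. Its log2 fold change of -0.54 (SE 0.27, adjusted p = 0.144) at 20 d against 0 d and of -0.60 (SE 0.27, adjusted p = 0.0871) at 50 d against 0 d was not called. Chr7.g34415 (chromosome 7, 3479730 to 3485574, minus strand), the lowest of the 10, had 6.09, 12.1 and 7.39 FPKM at 0 d, 13.5, 12.7 and 9.79 FPKM at 20 d and 10.9, 12.0 and 15.5 FPKM at 50 d. The replicate 0 d B reached the level of the later stages, and the changes of 0.57 (SE 0.33, adjusted p = 0.213) at 20 d and 0.64 (SE 0.33, adjusted p = 0.138) at 50 d, both against 0 d, were not called.

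ABI4, an AP2-domain factor of the ERF family that in Arabidopsis links ABA and sugar responses, was matched by 2 of the 10 genes. Chr1.g57127, the gene of the primers above, had 135.5, 79.2 and 115.5 FPKM in 0 d A, B and C, 73.2, 93.2 and 88.8 FPKM in the 20 d libraries and 52.0, 48.4 and 55.4 FPKM in the 50 d libraries. The 3 libraries of 50 d were below all others and spread little, with 51.9 ± 3.47 FPKM against 110.1 ± 28.5 FPKM at 0 d (SD, n = 3 each). At 50 d against 0 d the log2 fold change was -1.02 (SE 0.28, adjusted p = 0.0129), which misses the limit of 0.01 and was not called. It was called in 8 of 23 other settings, among them DESeq2 at -1.10 with an adjusted p of 0.000513, the fit without 20 d B at -1.07 with 0.00529, that without 20 d B and 50 d C at -1.08 with 0.00294 and the removal of the gene-length trend over all libraries at -1.28 with 0.000815 or within stages at -1.03 with 0.00299. The steps in between were -0.29 (SE 0.28, adjusted p = 0.461) at 20 d against 0 d and -0.73 (SE 0.28, adjusted p = 0.176) at 50 d against 20 d. The replicate 20 d B, at 93.2 FPKM, was close to 20 d A and C in this gene. The paper, which used DESeq, counts this gene among its differentially expressed factors and describes it as down-regulated during stratification. It also measured the gene by qRT-PCR, with values that were not used here.

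The second ABI4 gene, Chr7.g32311 (chromosome 7, 22931417 to 22932499, minus strand), had 27.0, 18.9 and 29.3 FPKM at 0 d, 28.3, 25.7 and 29.9 FPKM at 20 d and 18.9, 15.8 and 20.1 FPKM at 50 d. The 50 d libraries lay below those of 20 d with no overlap and reached 1 of the 0 d libraries. Its log2 fold change was 0.24 (SE 0.27, adjusted p = 0.523) at 20 d against 0 d, -0.63 (SE 0.27, adjusted p = 0.233) at 50 d against 20 d and -0.39 (SE 0.27, adjusted p = 0.265) at 50 d against 0 d. Another ABI4 match, Chr14.g48337, had 0 to 10 counts per library and was not tested.

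ABI1, the phosphatase 2C that acts against the ABA signal upstream of the ABI factors, was Contig21.g58870, on an unplaced contig (2569 to 6719, minus strand). Its FPKM was 11.2, 17.7 and 25.6 in 0 d A, B and C, 38.4, 24.0 and 38.7 in the 20 d libraries and 27.3, 27.4 and 26.7 in the 50 d libraries. The 50 d libraries were close to each other and above all 3 of 0 d, while 20 d B fell between those of 0 d. The log2 fold change was 0.97 (SE 0.34, adjusted p = 0.0513) at 20 d against 0 d, -0.33 (SE 0.34, adjusted p = 0.675) at 50 d against 20 d and 0.64 (SE 0.34, adjusted p = 0.149) at 50 d against 0 d, and none was called. Without 20 d B and 50 d C together, the first was 1.06 with an adjusted p of 0.00613, which is a call.

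The Cell number regulator 8 matches are PLAC8-family proteins, a family that in maize and tomato includes regulators of organ size. Chr12.g36457 (chromosome 12, 17013592 to 17016077, minus strand) was the highest of the 10 in all 9 libraries, with 192.4, 253.9 and 303.2 FPKM at 0 d, 144.5, 265.4 and 157.2 FPKM at 20 d and 109.5, 133.4 and 225.0 FPKM at 50 d. The replicates 20 d B and 50 d C were the highest of their stages. Its log2 fold change was -0.32 (SE 0.37, adjusted p = 0.528) at 20 d and -0.63 (SE 0.37, adjusted p = 0.186) at 50 d, both against 0 d. Chr4.g39556 (chromosome 4, 17612484 to 17616378, minus strand) had 50.7, 82.2 and 110.8 FPKM at 0 d, 64.9, 102.8 and 69.3 FPKM at 20 d and 63.2, 74.2 and 121.6 FPKM at 50 d. Its stages overlapped throughout, with log2 fold changes of 0.04 (SE 0.37, adjusted p = 0.948) and 0.14 (SE 0.37, adjusted p = 0.783) at 20 d and 50 d against 0 d, whose sign turned under several settings.

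In the order of the mean levels, only the top gene was above the next one in all 9 libraries. Chr1.g57127 was above Chr4.g39556 in 4 of 9, Chr12.g37807 above Contig21.g58870 in 5, Chr14.g47933 above Chr7.g32311 in 4 and Chr2.g43706 above Chr7.g34415 in 5, so these neighbours could not be ordered. Between the other neighbours the higher gene led in 6 to 8 libraries.

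The levels of several of these genes moved with the balance of long and short genes in a library. Over the 9 libraries the Pearson r of log2 CPM with that balance was 0.87 for ABI3, 0.89 and 0.72 for the ABI5 genes Chr12.g37807 and Chr14.g47933 and 0.63 for ABI1. It was -0.85 for Chr12.g36457, -0.74 for Chr2.g43706, -0.53 for Chr1.g57127, -0.46 for Chr4.g39556, -0.14 for Chr7.g32311 and 0.29 for Chr7.g34415. These are descriptions over libraries that also share their stage. The ABI5 genes are of moderate length, at 1663 and 1938 bases, and ABI3 is longer, at 3550 bases, and the part of the balance in their changes was not tested beyond the refits given above.

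**Figure D3:**
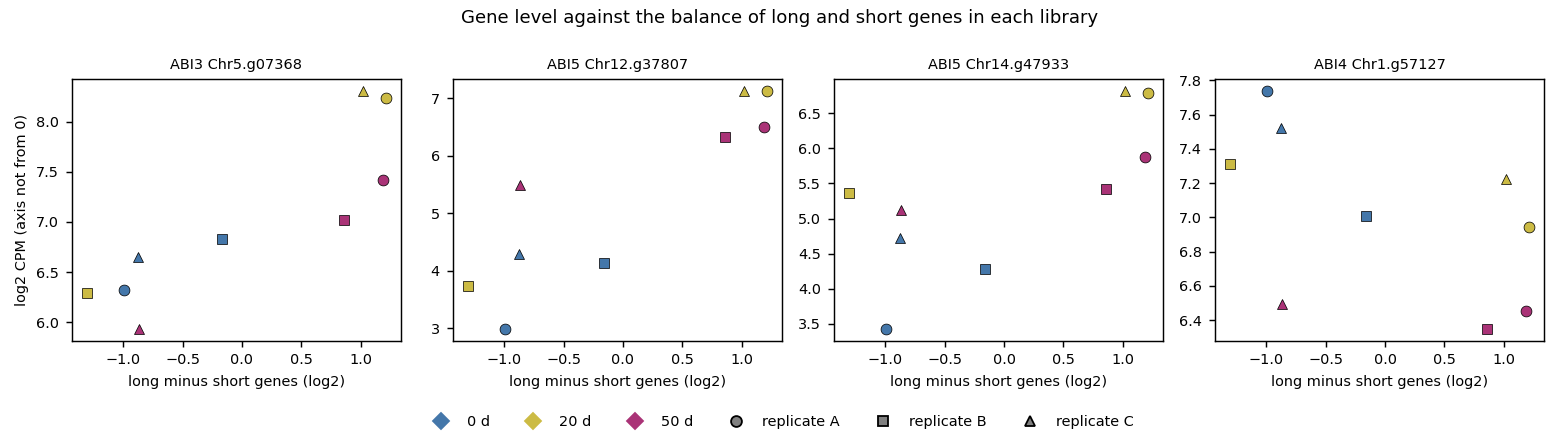
Log2 CPM of ABI3, both ABI5 genes and the ABI4 gene Chr1.g57127 (y axis, not from 0) against the balance of long over short genes in the same library (x axis, log2), with colour for stage and symbol for replicate. For ABI3 and Chr12.g37807 the libraries line up along the balance (r of 0.87 and 0.89), while for Chr1.g57127 the 3 libraries of 50 d are lowest at either end of it.

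In all, 4 pairs of genes with the same Swissprot match were in the list, and the ratio of their levels in a library is given here. The FPKM of ABI5 Chr12.g37807 was 0.85, 1.05 and 0.86 times that of Chr14.g47933 at 0 d, 1.46, 0.37 and 1.44 times at 20 d and 1.80, 2.18 and 1.51 times at 50 d. For ABI4 the ratio of Chr1.g57127 to Chr7.g32311 was 5.01, 4.20 and 3.94 at 0 d, 2.59, 3.63 and 2.97 at 20 d and 2.75, 3.07 and 2.75 at 50 d. The ratio of the ABI5-like 2 genes Chr2.g43706 and Chr7.g34415 was 2.89, 1.64 and 2.76 at 0 d, 0.77, 1.13 and 1.31 at 20 d and 0.97, 0.98 and 0.91 at 50 d, so the first led at 0 d and both were level at 50 d. For Cell number regulator 8 the ratio of Chr12.g36457 to Chr4.g39556 was 3.80, 3.09 and 2.74, then 2.23, 2.58 and 2.27, then 1.73, 1.80 and 1.85.

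The ratios of ABI5 overlapped between 20 d and 0 d, and those of ABI4 and ABI5-like 2 between 50 d and 20 d. At 50 d against 0 d the ratios of all 4 pairs did not overlap between the stages. Of all tested single genes, 55.6% had FPKM that did not overlap at that step. Other pairs of genes were not compared, so this is not shown to be particular to these pairs. The mean log2 ratio differed by 0.98 for ABI5, -0.61 for ABI4, -1.30 for ABI5-like 2 and -0.83 for Cell number regulator 8. Each had an exact two-sided permutation p of 0.1, the smallest that 3 against 3 libraries allow, and 0.133 after Benjamini-Hochberg adjustment over the 12 tests, so this design could not reach 0.05. No source used here says how reads that fit more than 1 gene were handled, so that near-identical copies may share reads.

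**Figure D4:**
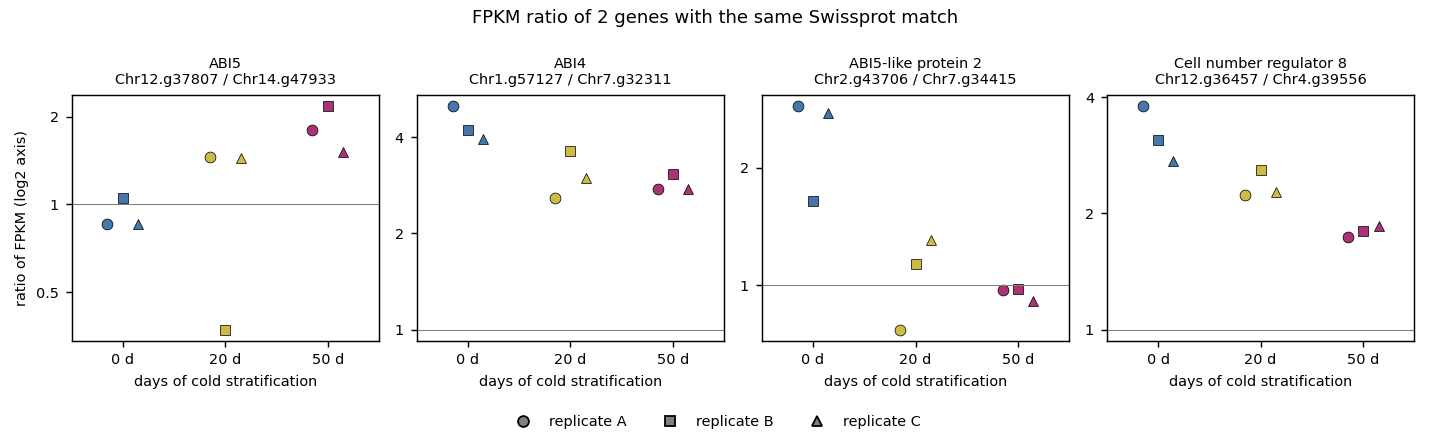
Ratio of the FPKM of 2 genes with the same Swissprot match (y axis, log2 scale, grey line at 1) in each library at 0, 20 and 50 d (x axis), with 1 symbol per replicate. In each of the 4 panels the 3 ratios of 50 d lie wholly to 1 side of those of 0 d, and 20 d B stands apart in the ABI5 panel, at 0.37. Other pairs of genes were not compared.

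Across the 9 libraries the 2 ABI5 genes had an r of log2 CPM of 0.89 with each other, ABI1 had 0.86 with ABI5 Chr12.g37807 and 0.96 with ABI5 Chr14.g47933, and ABI3 had 0.78 and 0.79 with them. The 2 ABI4 genes had 0.75 with each other. Chr2.g43706 ran against the ABI5 genes, with -0.81 and -0.76. These values describe 9 libraries that share stage and length balance.

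Of the 21 matches below the 10th, 12 were tested and 4 were called at 50 d against 0 d, 3 higher and 1 lower. At that step 15.6% and 11% of all tested genes were called higher and lower. None of the 12 was called at 20 d against 0 d or at 50 d against 20 d, where 12.4% and 1.66% of all tested genes were. DESeq2 called 1, 0 and 6 of these genes at 20 d against 0 d, 50 d against 20 d and 50 d against 0 d, beside 22.5%, 6.09% and 34.9% of all tested genes. The 3 higher ones are of the ABF/AREB type, bZIP factors that SnRK2 kinases activate under ABA. Chr15.g04194 (ABI5-like protein 5, known as AREB1 or ABF2), the 11th gene, had 3.59, 2.61 and 3.08 FPKM at 0 d, 11.2, 0.92 and 13.3 FPKM at 20 d and 26.0, 24.0 and 13.6 FPKM at 50 d. All 3 libraries of 50 d were above all of 20 d and 0 d, and 20 d B was the lowest of all. It rose by a log2 fold change of 2.85 (SE 0.70, adjusted p = 0.00675) at 50 d against 0 d.

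Chr8.g54486, the other ABI5-like protein 5 gene, had 0.54, 1.38 and 1.38 FPKM at 0 d, 5.52, 0.64 and 9.09 FPKM at 20 d and 22.4, 17.6 and 5.68 FPKM at 50 d. It rose by 3.83 (SE 0.83, adjusted p = 0.00337) at 50 d against 0 d on the log2 scale. Chr5.g08464 (ABI5-like protein 7, known as AREB2 or ABF4) had 0.95, 2.40 and 0.92 FPKM at 0 d, 5.22, 0.85 and 7.04 FPKM at 20 d and 11.3, 10.9 and 7.71 FPKM at 50 d, and rose by 2.86 (SE 0.66, adjusted p = 0.00465). In both genes the 3 libraries of 50 d were above all 3 of 0 d, and 20 d B was within or below the range of 0 d. These 3 calls were kept in 15 of 23 other settings for Chr15.g04194 and in 17 each for Chr8.g54486 and Chr5.g08464. All 3 lost the call without any 1 of 0 d A, 0 d C, 50 d A or 50 d B, with adjusted p of 0.0105 to 0.0363, and Chr15.g04194 and Chr8.g54486 also without 0 d B. All 3 were also called higher at 20 d against 0 d when 20 d B was left out, at 1.97 (adjusted p = 0.000789) for Chr15.g04194, 2.69 (adjusted p = 0.00283) for Chr8.g54486 and 2.07 (adjusted p = 0.00228) for Chr5.g08464. In that fit 23.7% of all tested genes were called at this step, in either direction. Chr8.g54487, an ABI5-like protein 7 match with the gene number next to Chr8.g54486, had a change of 3.68 (SE 1.21, adjusted p = 0.0282) that was not called. It was a call without 20 d B, at 3.64 (adjusted p = 0.00289). Without 20 d B and 50 d C it was called at 20 d against 0 d too, at 2.97 (adjusted p = 0.00263). The unstratified seeds gave this gene only 0, 6 and 5 counts, near the limit of detection. Replicates A, B and C had 25, 0 and 40 counts after 20 d, then 91, 68 and 11 after 50 d. Its 0 d mean was 0.762 FPKM, so it reached the FPKM limit only through the later stages, where it was high. Chr8.g54487 lies at 6369128 to 6370909 on the minus strand, beside Chr8.g54486 at 6366849 to 6369078 on the same strand. Its transcript has 324 bases and no Pfam domain, while that of Chr8.g54486 has 903 bases and a bZIP domain. Whether the 2 are parts of 1 gene was not tested.

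FUS3, a B3-domain partner of ABI3 in seed maturation, was near the limit of detection. Chr17.g24630 had 27, 19 and 20 counts in 0 d A, B and C, 4, 11 and 6 in the 20 d libraries and 0, 4 and 0 in the 50 d libraries. It fell at 50 d against 0 d (adjusted p = 0.00543), with 4 counts at 50 d against 66 at 0 d, which is 16.8-fold lower per library size with a 95% exact interval of 6.27 to 63.6 that covers counting error only. The gene passed the FPKM limit only through its 0 d mean of 1.07, against 0.0529 FPKM at 50 d, and the call is lost where a mean of 1 is asked of both stages. It was also lost without any 1 of 0 d A, 0 d B, 0 d C, 50 d A or 50 d C (adjusted p = 0.0135 to 0.0233), and kept in 14 of 23 other settings. Of the other 3 FUS3 matches, Chr9.g47411 had 0 to 5 counts per library, and Chr16.g30275 and Chr13.g23371 had no count in any library. LEC1 (NF-YB-9), the CCAAT-binding subunit of the same network, had 15, 12 and 2 counts in the 0 d libraries in its gene Chr3.g18887, 1, 0 and 0 at 20 d and 0, 0 and 1 at 50 d, too few to be tested. LEC2 (Chr10.g14208 and Chr5.g06085), VAL1 (Chr3.g20470 and Chr11.g10101), a repressor of that network, and the LEC1-LIKE genes Chr5.g05632 and Chr10.g13678 were tested and not called in any comparison. Chr10.g13678 had 26, 34 and 26 counts at 0 d, 2, 12 and 4 at 20 d and 9, 7 and 5 at 50 d. All 6 later libraries were below the 3 of 0 d, with log2 fold changes of -2.21 (SE 0.66, adjusted p = 0.0273) at 20 d and -2.21 (SE 0.65, adjusted p = 0.0169) at 50 d, both against 0 d. Of all tested genes, 42.2% and 55.6% had FPKM that did not overlap at these steps. The mean FPKM of Chr10.g13678 was 1.21 at 0 d, 0.248 at 20 d and 0.246 at 50 d. It reached the FPKM limit only through 0 d, where it was high, and its later counts were near the limit of detection.

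**Figure D5:**
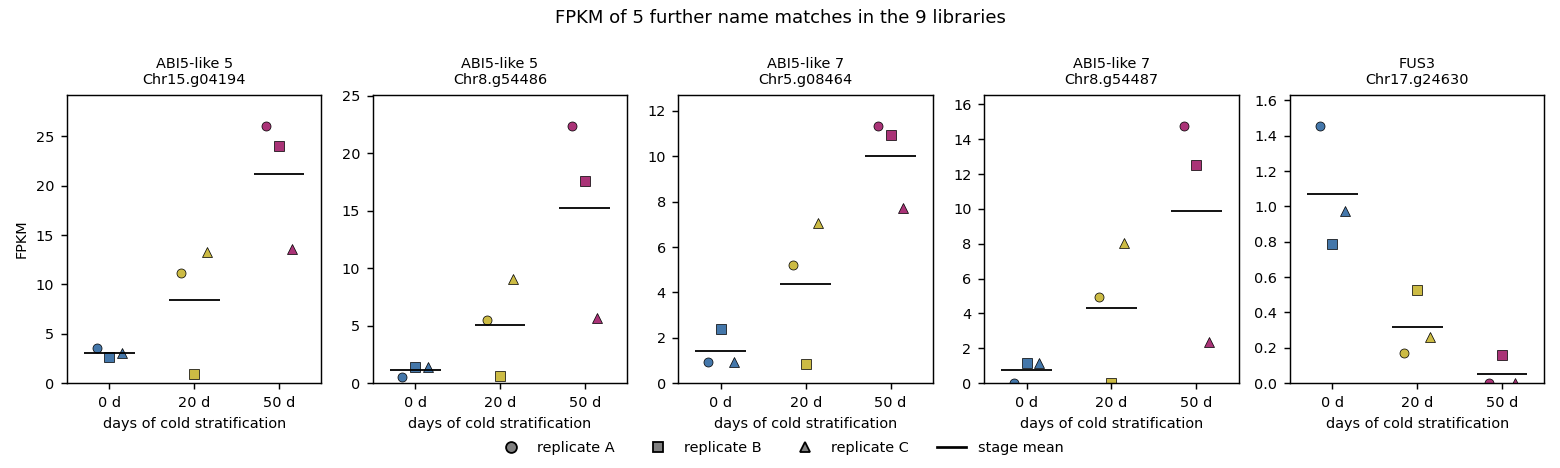
FPKM (y axis, from 0, scale differs between panels) of the 4 ABF/AREB-type genes and the FUS3 gene ranked below the 10th, by days of cold stratification (x axis), with 1 symbol per replicate and a line at the mean of 3. The 4 ABF/AREB-type genes have their highest stage mean at 50 d, with 50 d C the lowest library of that stage, and FUS3 has 0 in 2 of the 3 libraries of 50 d. Chr8.g54486 and Chr8.g54487 are neighbours on 1 strand, and whether they are parts of 1 gene was not tested.

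The other genes of the ABA pathway were taken by name, with the 10 genes left out. Their calls stand beside those of all tested genes, of which 7.88% were higher and 4.52% lower at 20 d against 0 d, 1.4% and 0.254% at 50 d against 20 d, and 15.6% and 11% at 50 d against 0 d. At 20 d against 0 d, 50 d against 20 d and 50 d against 0 d in turn, 0, 0 and 1 of 7 tested genes of ABA synthesis were called, the last 1 lower, and 1, 0 and 1 of 5 tested genes of ABA breakdown, the first higher and the last lower. Of 12 tested ABA receptors, 1 was called at 20 d against 0 d, higher, and 2 higher and 2 lower at 50 d against 0 d. Of 102 tested phosphatases 2C, 1 was higher and 7 lower at 20 d against 0 d, 2 higher and 1 lower at 50 d against 20 d, and 12 higher and 14 lower at 50 d against 0 d. Of 21 tested SnRK2 kinases, 1 was higher at 20 d against 0 d, and 1 higher and 2 lower at 50 d against 0 d. The median log2 fold changes at 50 d against 0 d were -0.75 for synthesis, 0.75 for breakdown, 0.08 for receptors, -0.02 for phosphatases 2C and 0.07 for SnRK2 kinases, beside 0.16 over all tested genes. Without 20 d B, 11 phosphatases 2C were higher and 11 lower at 20 d against 0 d, and 3 breakdown genes were higher and 1 lower. In that fit 23.7% of all tested genes were called at this step, in either direction.

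By the highest mean FPKM of each group, the breakdown gene Chr15.g02290 (ABA 8'-hydroxylase 4) fell by 1.38 (SE 0.37, adjusted p = 0.00982) at 50 d against 0 d on the log2 scale, and the receptor gene Chr1.g57831 (PYL9) fell by 1.21 (SE 0.30, adjusted p = 0.00778). The synthesis gene Chr2.g42610 (zeaxanthin epoxidase), the phosphatase gene Chr11.g12785 (PP2C 39) and the kinase gene Chr8.g56159 (SRK2A) were not called, with log2 fold changes of 0.91, -0.89 and -0.70 at 50 d against 0 d. The top gene among 23 tested regulators of ABI proteins was Chr10.g15435 (AFP3, of a family that binds ABI5). It had 13.9, 20.5 and 45.1 FPKM at 0 d, 130.3, 48.0 and 116.2 FPKM at 20 d and 84.9, 73.7 and 74.5 FPKM at 50 d, which is a log2 fold change of 1.97 (SE 0.47, adjusted p = 0.0103) at 20 d against 0 d, just outside the limit. Of that group 2 genes were higher at 20 d against 0 d, and 1 higher and 1 lower at 50 d against 0 d, while without 20 d B it was 8 higher at 20 d and 5 higher and 2 lower at 50 d. Without 20 d B, 23.7% and 34.0% of all tested genes were called at these steps, in either direction. Another list took bZIP genes by the names AREB, ABRE-binding, TRAB1 or G-box-binding factor, which include the ABF/AREB genes above. Their response to ABA was not tested. Of 10 tested, 5 were higher and 0 lower at 50 d against 0 d. The 3 ABF/AREB genes already called higher above are among these 5, as is Chr2.g42452 (G-box-binding factor 1) at 1.16 (SE 0.29, adjusted p = 0.00763). At 20 d against 0 d none of the 10 was called, and without 20 d B the same 3 ABF/AREB genes were higher.

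Classes of genes that ABI3 and ABI5 activate in Arabidopsis seeds were counted in the same way, beside 15.6% of all tested genes called higher and 11% called lower at 50 d against 0 d. Of 29 tested LEA and Em genes, 3 were called higher and 9 lower at 50 d against 0 d, of 12 storage protein genes 1 and 4, and of 9 oleosin genes 0 and 5, with median log2 fold changes of -0.52, 0.16 and -2.71. At 20 d against 0 d the calls were 2 higher and 3 lower, 1 and 1, and 0 and 1, and at 50 d against 20 d they were 0 and 1, 0 and 2, and 0 and 2. Without 20 d B the calls at 20 d against 0 d were 2 higher and 6 lower LEA and Em genes and 5 higher and 1 lower storage protein genes. In that fit 23.7% of all tested genes were called at this step, in either direction. Legumin A (Chr5.g07108) fell by 3.81 (SE 0.59, adjusted p = 0.000448) and oleosin 1 (Chr7.g32129) fell by 2.46 (SE 0.48, adjusted p = 0.00176) at 50 d against 0 d on the log2 scale, while LEA D-34 (Chr13.g22674), at -1.15 (SE 0.35, adjusted p = 0.0187), was not called. Of 2 tested genes of the dormancy family DOG1, 1 was higher at 20 d and at 50 d, both against 0 d, and the one with the higher level, Chr11.g12902 (DOG1-like 4), had -0.82 (SE 0.31, adjusted p = 0.0479) at 50 d against 0 d and was not called.

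The genes whose log2 CPM over the 9 libraries was most like that of a given gene, by Pearson r among all tested genes with a Swissprot match, are given for the gene with the highest mean FPKM among the ABI3, the ABI4, the ABI5 and ABI5-like and all remaining genes. As in the correlations above, these r describe libraries that share stage and length balance, and common regulation was not tested. ABI3 was most like Chr13.g22569 (pentatricopeptide repeat protein, r = 0.99), Chr1.g57364 (Elongator complex protein 1, 0.98) and Chr3.g17929 (pentatricopeptide repeat protein, 0.98). The pentatricopeptide repeat genes had low mean levels, 1.24 FPKM in Chr13.g22569 and 0.419 FPKM in Chr3.g17929. ABI4 Chr1.g57127 was most like Chr16.g29242 (cysteine-rich repeat secretory protein 3, r = 0.98), Chr17.g25378 (a homolog of CDC123, 0.98) and Chr10.g17174 (the bZIP factor VIP1, 0.98). ABI5 Chr12.g37807 was most like Scaffold1.g05191 (the chaperonin subunit TCP-1 theta, r = 0.997), Chr11.g13407 (histone methyltransferase EZA1, 0.99) and Chr10.g14406 (trehalose-phosphate synthase 1, 0.99). Cell number regulator 8 Chr12.g36457 was most like Chr1.g57472 (NF-YB-8, 0.98), Chr14.g47761 (the splicing factor U2AF small subunit B, 0.97) and Chr12.g37973 (a byr2-type kinase, 0.97).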

How the data were processed

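Counts and FPKM of 59552 genes in 9 libraries (0, 20 and 50 d, 3 replicates each, stages from the sample labels) were used as the authors deposited them. The counts are whole read numbers, and the authors aligned reads with HISAT2 to the wild pear assembly; no source used here gives the version, the counting tool, its strand setting or how reads that fit several genes were handled. The FPKM values are those the authors deposited. Gene names, Pfam domains, transcript lengths and positions are text and numbers of the same table per the file headers. The table's columns with the authors' own comparisons (normalized means, fold changes and p-values) were not used.

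Counts were fitted with edgeR 4.0.16 in R 4.3.3 (TMM, filterByExpr by stage, quasi-likelihood, all 9 libraries, stage as the only factor), with Benjamini-Hochberg adjustment over the 28339 tested genes. Genes were called at an adjusted p up to 0.01, a log2 fold change of 1 or more in size and a mean FPKM of 1 or more in either stage. Alternatives were DESeq2 1.42.0, limma 3.58.1 on log2(FPKM + 1) and on log2(FPKM + 0.1), RLE factors, other filters and limits, glmTreat, a replicate block by letter, a fit of just the 2 stages and each library left out. Added after seeing the data were the fit without 20 d B and 50 d C and the removal of the length trend (over all libraries, or within each stage). The fits were tested on simulated data. Summaries used Python 3.11.15, pandas 2.3.3, numpy 2.4.6, scipy 1.17.1 and matplotlib 3.10.9.

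The genes and the lists were chosen with earlier results of these data known. Named were the 10 genes, of lower matches the 11th and those called, the top gene by mean FPKM of each list, and the 3 genes most like the top gene of 4 groups (ABI3, ABI4, ABI5 with ABI5-like, and all remaining); the other low matches were named after their values were seen. The labels call the replicates biological, and p-values measure the spread between these samples. The authors' clean reads, the qRT-PCR values and the hormone data were not analysed here.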

Additional observations from a re-analysis of the deposited data

How the results depend on the processing

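At 20 d against 0 d the count of called genes was 1, and it was 2 with DESeq2, with no low-count filter and with an adjusted p below 0.05, 0 with glmTreat and with the replicate block, 3 with the length trend removed within stages, 4 without 20 d B and 50 d C, and 0 to 3 with 1 library left out (3 without 20 d B). No setting gave a call at 50 d against 20 d (count 0). The share of all tested genes called at 20 d against 0 d, 12.4% at first, was 22.5% with DESeq2. It was 25.7% with an adjusted p below 0.05 and 22.4% with the length trend removed within stages. It was 23.7% without 20 d B and 33.9% without 20 d B and 50 d C. The share did not always move with the count. With no low-count filter the count was 2, but the share fell below 12.4%. With the length trend removed against all libraries the share rose, but the count stayed at 1. The count at 50 d against 0 d was 0, and it was 2 with DESeq2, 1 with no low-count filter, with only the 2 stages compared and with both limma-trend fits, 3 with an adjusted p below 0.05, 3 without 20 d B and 50 d C, 1 and 2 with the length trend removed against all libraries and within stages, and 0 to 3 with 1 library left out (3 without 20 d B). At that step the share of all tested genes, 26.6% at first, was 34.9% with DESeq2, 38.8% with an adjusted p below 0.05, 32.7% and 34.9% with the length trend removed, 34.0% without 20 d B and 41.6% without 20 d B and 50 d C.

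The correlations of deviations from the stage means between same-letter libraries were -0.56 to 0.55, with no common sign. Libraries of different letters reached 0.72 (20 d B with 50 d C). This measure therefore cannot decide whether the letters pair the samples. With the letter as a replicate block, ABI5 Chr14.g47933 had 2.16 (adjusted p = 0.019) at 20 d against 0 d, and the calls of the whole table were 1292, 50 and 5163 in place of 3515, 470 and 7536.

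Of the log2 fold changes of the 10 genes under the alternatives, 632 kept direction and call, 28 gained a call, 7 lost one and 23 turned sign. The first fit held only 1 call, so most of the 632 are results that stayed without a call. The settings with another FPKM or p limit reuse the fold changes of the first fit, so no sign could turn in them. Other FPKM limits could not change a call either, since every stage mean of the 10 genes exceeded 1 FPKM. Among the sign changes, Chr4.g39556 at 20 d against 0 d was -0.0518 with DESeq2, -0.0517 with RLE factors, -0.0002 with limma-trend on log2(FPKM + 1), -0.328 with the length trend removed against all libraries, -0.2945 without 20 d B and 50 d C, and -0.324 to 0.206 with 1 library left out. Its value at 50 d against 0 d was -0.198 without 20 d B and 50 d C, -0.207 with the length trend removed and -0.197 to 0.351 with 1 library left out, and at 50 d against 20 d it was -0.131 to 0.372 with 1 library left out. With 1 library left out, Chr12.g36457 at 50 d against 20 d was -0.568 to 0.0548, Chr2.g43706 -0.193 to 0.0894 (0.0141 without 20 d B and 50 d C) and Chr7.g34415 -0.0683 to 0.164, and at the same step Chr12.g37807 was 0.105 and 0.136 with limma-trend. ABI3 Chr5.g07368 at 50 d against 0 d was -0.0329 to 0.582 with 1 library left out and -0.454 with the length trend removed. The cause of these changes was not tested. Removal of the length trend against all libraries moved the median of all genes by -0.16, 0.03 and -0.14, and limma-trend on log2(FPKM + 1) by -0.12 at 20 d against 0 d. With 3 replicates a missed call leaves a change possible, and the counts behind FUS3 and LEC1 were too low to rank their stages closely.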
